A study of Mus musculus with 4 samples.

Results

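The livers of OGT-KO and control mice were compared at the end of a choline-deficient, ethionine-supplemented (CDE) diet, before any recovery, across all genes that passed a filter on low values. Of 13903 genes in the deposited table, 8963 had a mean of at least 10 CPM (reads scaled to a library total of 1000000) over the libraries of the series and were compared, as the log2 ratio of OGT-KO to control after 1 was added to each value. Mice of both groups carried the floxed Ogt allele on the C57BL/6J background and ate the CDE diet. OGT-KO mice received AAV8-TBG-CRE and control mice AAV8-TBG-eGFP. The TBG promoter is active in hepatocytes, so the other cells of the liver were not targeted. Each group was 1 liver library made from equal amounts of RNA from 3 mice, and the ages and sexes of the mice are not given in the sources used here. The series holds 4 such libraries, the other 2 taken after 7 days of recovery. With 1 pooled library a side there is no replicate error, so no p-value is given, and each difference is a difference between 2 pools.

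OGT, the O-GlcNAc transferase, attaches a sugar made by the hexosamine pathway to serines and threonines of nuclear and cytoplasmic proteins, and OGA, the O-GlcNAcase, removes it. Hepatocytes hold their mature state through a network of transcription factors that includes HNF4α and C/EBPα, and carry out most of the body's plasma protein, bile acid, urea and drug metabolism. The CDE diet starves the liver of the methyl donor choline while ethionine competes with methionine, and is known for injuring hepatocytes and expanding duct-like progenitor cells. When hepatocytes lose maturity they lower genes of this metabolism and may turn on genes of the fetal liver, such as Afp.

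Ogt itself was listed at 55.3 CPM in the OGT-KO library (1265 reads, 95% exact interval 52.3 to 58.5) and 64.7 in control (1375 reads, 61.3 to 68.2), a log2 fold change of -0.22. Scaled by the median ratio of the libraries' genes, as described below, it was -0.93. In the libraries after 7 days of recovery Ogt was 77.7 CPM in OGT-KO and 55.7 in control, so the value of the whole gene was lower in OGT-KO with no recovery and higher after it. The table gives whole genes and no exons, so the deleted part could not be looked at apart from the rest. Groups are therefore named by their labels. Oga was 46.5 and 57.7 CPM.

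The OGT-KO library held 22866431 reads on the listed genes and the control library 21257763, which puts the level of 3 reads at 0.131 and 0.141 CPM. A gene was called at a 2-fold difference. Of the compared genes 30.1% were called, 2185 (24.4%) of them higher in OGT-KO and 510 (5.69%) lower, and all of these 2695 differences exceeded counting error by an exact binomial test of the reads. A 4-fold difference was reached by 691 higher genes (7.71%) and 164 lower genes (1.83%). This split rests on the scaling. The 100 most abundant genes took 34.1% of the reads in OGT-KO and 42.8% in control, and the median of all compared genes was 0.51 on the log2 scale. Scaled instead by the median ratio of the libraries' genes, which moved that median by -0.70 to -0.19, 935 genes (10.4%) were higher and 1381 (15.4%) lower, and the higher share of the calls went from 81.1% to 40.4%. All 510 genes called lower stayed called, 935 of the 2185 called higher stayed called, and no called gene changed direction. A further 3291 genes that were higher by less than 2-fold at equal totals were lower by the median ratio. The filter bears on the counts too, since 1253 compared genes had under 10 CPM in control, and 947 of these were called higher. Likewise 167 compared genes had under 10 CPM in OGT-KO, and 95 of these were called lower. Counts of list members are therefore a description, to be set against the 24.4% higher and 5.69% lower of all compared genes (10.4% and 15.4% by the median ratio), as list medians are against 0.51 (-0.19 by the median ratio). Each functional list is given with its calls by the median ratio and with the share of reads on all its genes in the table, which the filter on levels does not touch.

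**Figure D1:**
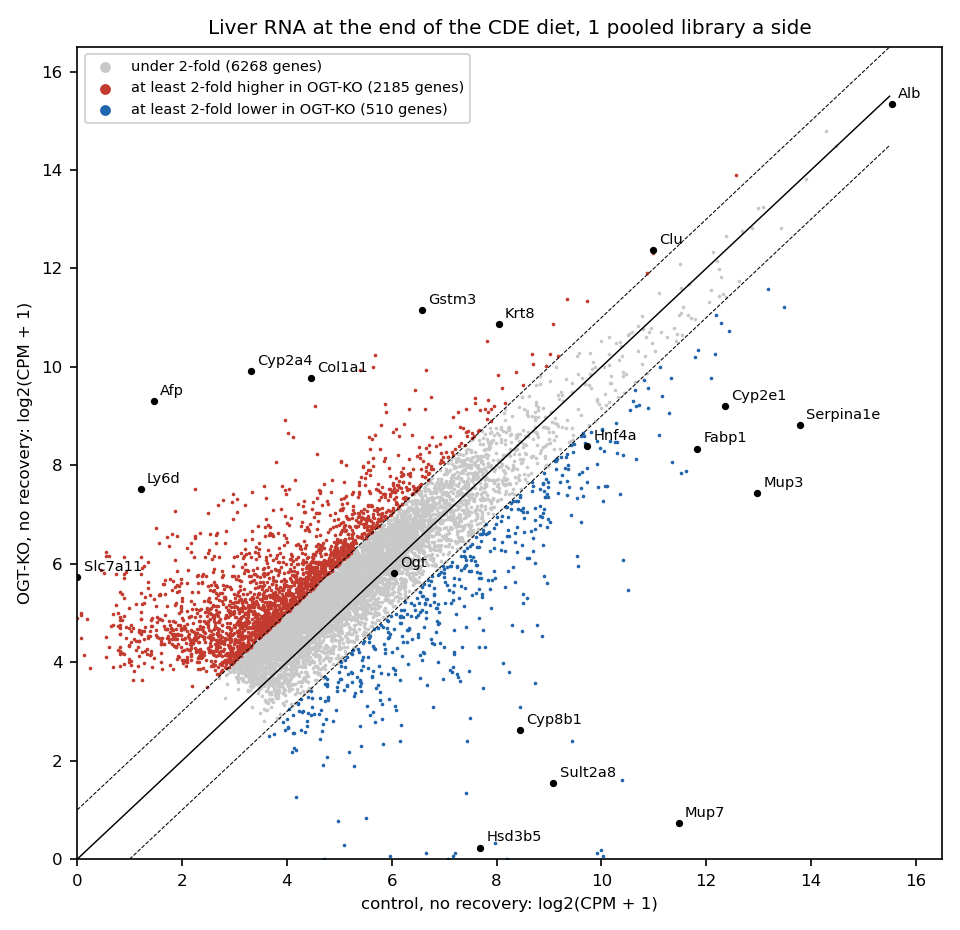
Level of each of the 8963 compared genes in the control library (x axis) and the OGT-KO library (y axis), both as log2(CPM + 1), with the line of equal values, dashed lines at 2-fold, and named genes in black. The 2185 red points spread over low and middle control values, while many of the 510 blue points, such as Serpina1e, Mup3 and Cyp2e1, lie at high control values.

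Genes were grouped in 46 lists by function and 11 lists of cell type markers. Together the lists hold 1747 genes of the table, and 181 of these belong to more than 1 list. Of the 53 lists with at least 3 compared genes, 26 had a median above that of all genes and 27 below it. In what follows, a pair of values is CPM in OGT-KO first and in control second, and a signed value is a log2 fold change unless said otherwise. The lists of amino acid breakdown, bile acids, conjugation and carboxylesterases had medians below that of all genes at either scaling. Those of oncofetal genes (of fetal liver and liver tumors), biliary genes, matrix, cytoskeleton and mitosis had medians above it.

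**Figure D2:**
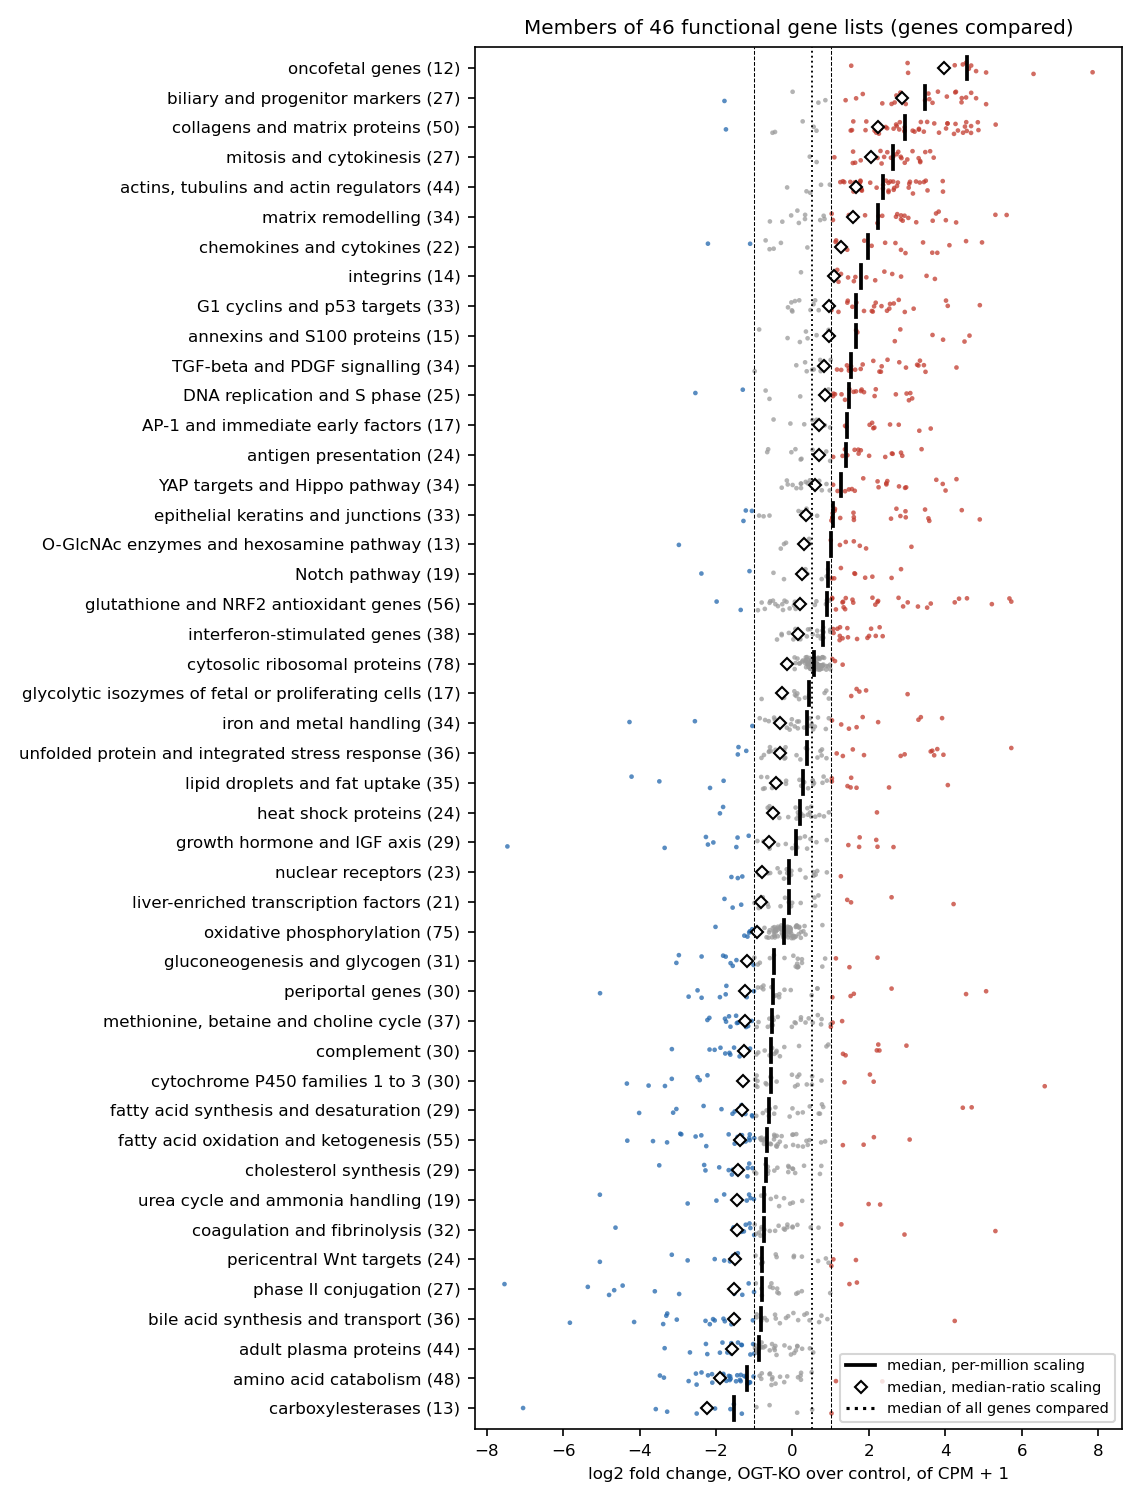
Log2 fold change of CPM + 1 for every compared member (points, red at least 2-fold higher and blue at least 2-fold lower in OGT-KO) of the 46 functional lists, sorted by median, with the number of compared genes in brackets. Black bars are list medians at the deposited scaling, diamonds the medians after median-ratio scaling, and the dotted line the median of all genes, 0.51; medians run from -1.53 for carboxylesterases to 4.58 for oncofetal genes.

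Markers of nonparenchymal cells were higher in OGT-KO, and those of hepatocytes made up less of the library. The 14 hepatocyte markers took 5.91% of the reads in OGT-KO and 8.72% in control, 6 of them were at least 2-fold lower and none higher. The lowest of the 14 in OGT-KO, Hal, was at 64.1 CPM. Cholangiocyte markers took 0.00880% of the reads in control and 0.137% in OGT-KO, with 10 of 11 compared members at least 2-fold higher. For stellate cells and myofibroblasts, the matrix-producing cells, the shares were 0.0453% in control and 0.267% in OGT-KO, with 20 of 22 higher. Markers of infiltrating monocytes and macrophages took 0.0236% in control and 0.246% in OGT-KO, and all 17 compared members were higher. Of the compared members, 9 of 11 for cholangiocytes, 9 of 22 for stellate cells and 10 of these 17 had under 10 CPM in control. Those passed the filter through other libraries, so their calls lean on it. The shares of reads take in every listed marker in the table and do not depend on the filter. The resident macrophages, Kupffer cells, had 8 of 11 higher, of which 3 stayed called by the median ratio, and 1 lower, C6, which is also made by hepatocytes. Endothelial markers had the lowest median of the vessel, stellate, duct and macrophage lists (0.82), with 10 of 26 higher and 0.0886% of the reads in control against 0.159% in OGT-KO, and by the median ratio only 2 of the 26 stayed called. In bulk RNA, fewer cells of a type and less RNA per cell cannot be told apart.

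**Figure D3:**
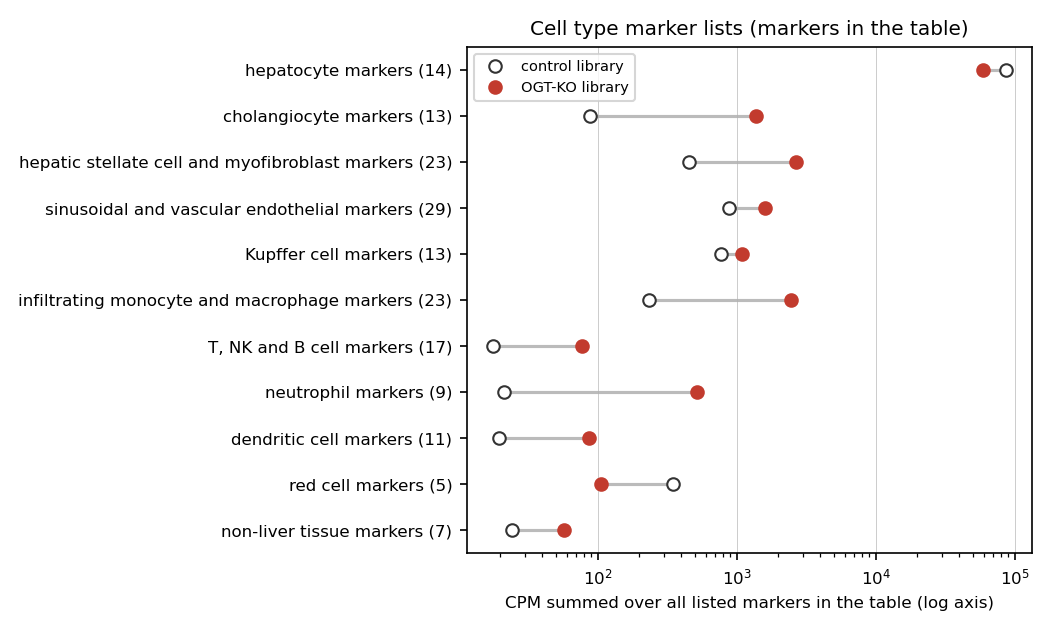
Summed CPM (log axis) of every listed marker in the table for 11 cell types, in the control library (open circles) and the OGT-KO library (filled circles), with the number of markers in brackets. Hepatocyte and red cell markers sum to less in OGT-KO, and the other 9 lists to more.

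Other leukocytes left few reads. Of the lymphocyte markers 17 of 32 were in the table with only Ptprc, the pan-leukocyte antigen CD45, past the filter (33.8 CPM in OGT-KO, 6.16 in control). The T cell receptor subunit Cd3e was 2.23 CPM and 0.612 CPM in these libraries. The neutrophil sum, 523 against 21.2 CPM, was mostly Lcn2 (487 and 14.7 CPM), which injured hepatocytes also make. Its defining members S100a8 (5.60 and 0.988 CPM) and S100a9 (6.95 and 0.894 CPM) did not reach the filter. Of the 11 dendritic cell markers 2 passed it, Itgax and Irf8, and both were called higher. Red cell globins were not called, among them Hbb-bs at 55.1 CPM in OGT-KO and 79.3 in control. Of 15 markers of other tissues 7 were in the table and 1 passed the filter, without being called. Among them, pancreatic digestive enzymes were present in OGT-KO and at or near 0 in control. Cpa1, a carboxypeptidase of pancreatic acinar cells, had 152 reads in OGT-KO and 0 in control. Prss2, a trypsinogen, had 117 reads and 0 reads. After these values were seen, a list of 16 acinar genes was added (Cela2a, Cela3b, Cel, Clps, Cpb1, Ctrl, Ctrb1, Cpa1, Prss2, Pnlip, Pnliprp1, Try4, Try5, Sycn, Zg16 and Rnase1). It summed to 1804 reads (78.9 CPM) in OGT-KO against 18 reads (0.847 CPM) in control, and 13 of the 16 were at 0 in control. None of the 16 passed the filter on low values. The part of pancreatic RNA in the results on duct genes, which the pancreas also expresses, was not tested.

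Several enzymes that make or recycle the sugar donor of OGT were higher in the OGT-KO library. Of 13 compared genes of the hexosamine and O-GlcNAc list, 7 were at least 2-fold higher and 1 lower, with a median just above 1 on the log2 scale. Reads on all 17 in the table came to 0.103% in OGT-KO and 0.0659% in control, with 3 called higher and 2 lower by the median ratio. Gfpt1, which commits fructose 6-phosphate to the pathway, stood just past the threshold at 90.7 CPM against 44.8 in control, and by the median ratio its log2 fold change was 0.29. Uap1l1, a paralog of the pyrophosphorylase that forms the donor, had 73.95 CPM against 7.67. Salvage genes were among those called. The N-acetylglucosamine kinase Nagk was 42.8 against 13.4 CPM, and Amdhd2, which takes the pathway backwards, 66.3 against 18.9. Hk1, a hexokinase of other tissues, was higher (23.4 and 5.41 CPM).

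Among the factors that set hepatocyte identity, some were lower and others differed by less than 2-fold. Hnf4a, a nuclear receptor at the center of the network, had 335 CPM in OGT-KO and 851 in control, 2.54-fold lower (95% interval of counting error 2.47 to 2.61). Foxa1, a pioneer factor of the endoderm, was 13.4 against 41.6 CPM. Onecut1, also called HNF6, was 11.2 against 40.9. Cebpa, a factor of mature liver metabolism, stood at the threshold without passing it (251 and 502 CPM). The 4 members called higher are known from progenitor, duct or injured liver. All 4 had under 10 CPM in control, so their calls lean on the filter. Sox4, a factor of early duct development, had the largest difference, 78.7 CPM against 3.29 (4.21). Sox9, which marks ducts and progenitors, was 56.7 against 8.56. Gata6 (23.7 and 7.53 CPM) and the injury-induced Cebpd (25.2 and 8.70 CPM) completed them. The list of 21 compared genes thus had a median of -0.10, with 4 called higher and 3 lower, a balance that the median ratio turns to more lower than higher (median -0.82). All 22 in the table made up 0.225% of OGT-KO reads and 0.300% of control reads, while the median ratio gave 2 higher and 9 lower.

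Some nuclear receptors of metabolism were lower as well. Of 23 compared, 3 were called lower and 1 higher, with a median of -0.10. The 30 listed genes in the table took 0.162% of the reads in OGT-KO and 0.194% in control, and by the median ratio none were higher and 8 lower. The xenobiotic receptor CAR, Nr1i3, was 66.8 CPM in OGT-KO and 182 in control. Ppara, which drives fatty acid oxidation, was 23.5 and 59.8. Nr0b2, the bile acid-induced repressor SHP, was 10.7 and 34.3. The bile acid receptor FXR, Nr1h4, was 70.8 and 89.2 CPM, within 2-fold at equal totals (-0.33) and past it by the median ratio (-1.04). The pregnane receptor Nr1i2 was 101 and 64.1 CPM, a difference that changes sign with median-ratio scaling (0.65 to -0.06). Ppard, the receptor called higher, was 29.3 and 11.6 CPM.

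Secreted plasma proteins were lower unevenly. Of 44 compared, 16 were at least 2-fold lower in OGT-KO and none higher, and the median was -0.87. Reads on all 45 in the table came to 12.6% in OGT-KO and 18.4% in control, with none called higher and 34 lower by the median ratio. Protease inhibitors were among the lower genes. Serpina1e, an α1-antitrypsin that the list does not hold, was 448 CPM in OGT-KO and 14115 in control, the largest loss of CPM of any gene and 31.5-fold lower (30.9 to 32.1). Its near-identical copies Serpina1a (532 and 2498 CPM) and Serpina1c (1226 and 4576 CPM) were lower too, and reads on such copies are uncertain singly. Serpina3k, of the antichymotrypsin family, was 2373 against 11414 CPM. Apoa1, the main protein of high-density lipoprotein, was 3050.2 against 9258. Igfals, the carrier subunit that holds IGF1 in the blood, was 12.9 against 141. Alb, serum albumin, remained the gene with the most reads in both libraries at 41362 and 47845 CPM (-0.21, and -0.93 by the median ratio). Trf, transferrin, was 14480.1 and 15250.3 CPM.

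The oncofetal list, of genes of fetal liver and liver tumors, had a median of 4.58 for members past the filter, the highest of all lists as deposited. This median was 2.66 with no filter and 2.75 with a pseudocount of 10. The list is mixed and was drawn up with earlier results of these data known. Its compared members include Epcam, Spp1, Cd24a and Tspan8, which the biliary list also holds. Of the 32 oncofetal genes, 27 were in the table and 12 passed the filter, and all 12 were called higher. Of these 12, 9 had under 10 CPM in control, so the count leans on the filter. All 27 in the table made up 0.291% of OGT-KO reads and 0.0209% of control reads, while the median ratio gave 11 higher and none lower. Afp, the fetal counterpart of albumin, had 632 CPM against 1.74, 363-fold higher (264 to 516). Gpc3, a heparan sulfate proteoglycan of fetal liver and liver tumors, had 41.98 against 0.753. The cell surface antigens Ly6d (182 and 1.32 CPM) and Tspan8 (54.6 and 0.659 CPM) were among the largest differences of the list. Abcc4, an exporter that pumps bile acids into the blood, was 84.9 and 3.53 CPM.

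Alb and Afp are neighbors in the mouse genome, and the start of Afp lies 29844 bases downstream of that of Alb on the same strand (RefSeq, GRCm38.p6). Their upstream sequences are printed with that of Serpina1e because, at equal totals, Alb differed little, Afp was higher and Serpina1e lower. Each of the 3 holds a match, on either strand, to CCAAT, the letters that NF-Y binds. The 250 bases before each start are given in the direction of transcription, from chr5:90460620-90460869 (plus strand) for Alb, chr5:90490464-90490713 (plus strand) for Afp and chr12:103956898-103957147 (minus strand) for Serpina1e, with matches in capitals.
Alb: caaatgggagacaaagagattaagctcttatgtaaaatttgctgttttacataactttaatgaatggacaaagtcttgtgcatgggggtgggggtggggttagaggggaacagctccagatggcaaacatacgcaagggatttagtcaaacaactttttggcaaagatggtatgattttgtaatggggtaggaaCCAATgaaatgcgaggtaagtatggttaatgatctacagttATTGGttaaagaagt
Afp: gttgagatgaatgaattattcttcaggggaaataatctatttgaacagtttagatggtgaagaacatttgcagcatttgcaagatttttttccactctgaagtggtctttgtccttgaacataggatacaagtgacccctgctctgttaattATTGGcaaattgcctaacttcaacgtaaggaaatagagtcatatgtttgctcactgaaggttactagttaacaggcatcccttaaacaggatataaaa
Serpina1e: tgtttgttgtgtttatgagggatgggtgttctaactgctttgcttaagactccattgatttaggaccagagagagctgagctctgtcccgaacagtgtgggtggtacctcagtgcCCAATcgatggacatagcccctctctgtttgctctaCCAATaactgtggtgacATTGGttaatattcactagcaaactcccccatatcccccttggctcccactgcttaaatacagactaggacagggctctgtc
Alb holds 2 matches, which begin 56 and 15 bases before its start. Afp holds 1, which begins 98 bases before, and Serpina1e 3, at 135, 99 and 82 bases before. Promoters, 250 bases before to 50 after each start, were on hand in RefSeq for 7178 of the 8963 compared genes. On either strand CCAAT was found in the promoters of 42.2% of them, of 38.5% of the genes called higher and of 53.9% of those called lower. The letters CAAAGTCC, from the motif of HNF4, were in 1.89%, 1.89% and 4.26%, and E2F's TTCCCGC in 9.38%, 8.91% and 3.76%. Promoters of the genes called lower also differed in base composition, with a median GC content of 54.3% against 61.3% in all and in those called higher, and its part in these shares was not tested. CAAAGTCC and CCAAT matches overlapped in 2 genes. A match is a run of letters and not a bound site.

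Coagulation and complement genes differed in both directions, with shares called higher (9.38% and 20.0%) under the 24.4% of all compared genes. In the coagulation list 9 of 32 were lower and 3 higher (median -0.74). The 40 listed genes in the table took 1.72% of the reads in OGT-KO and 2.84% in control, and by the median ratio 2 were higher and 20 lower. Klkb1, plasma prekallikrein from hepatocytes, was 6.25 CPM in OGT-KO and 179 in control, and Plg, plasminogen, was 879 and 2587. Fgb, a fibrinogen chain, was below the threshold at 2773 and 4858 CPM. The 3 higher genes are known from endothelium and other cells. Plat, tissue plasminogen activator, had 55.5 against 0.423 CPM, Thbd, thrombomodulin, 46.8 against 5.27, and Vwf, von Willebrand factor, 36.5 against 14.4. In the complement list 11 of 30 were lower and 6 higher. Reads on all 33 in the table came to 2.37% in OGT-KO and 2.49% in control, with 4 called higher and 20 lower by the median ratio. The subunits of C1q, made by macrophages, were 221 (C1qa), 201 (C1qb) and 212 (C1qc) CPM in OGT-KO against 47.1, 40.7 and 43.9 in control. Terminal components of hepatocyte origin were lower, with C8b at 52.8 against 479 CPM and Hc, which encodes C5, at 305 against 1255. C3, the central component, was 9779 and 8682 CPM, a difference whose sign turns with median-ratio scaling (0.17 to -0.55). Clu, clusterin, an inhibitor of the terminal complex, had the largest gain of CPM of any nuclear gene, at 5276 CPM in OGT-KO and 2013 in control.

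Drug-metabolizing P450 genes included some of the largest differences in both directions. Of 30 compared, 7 were lower and 4 higher, with a median of -0.57. All 44 in the table made up 1.71% of OGT-KO reads and 2.49% of control reads, while the median ratio gave 3 higher and 17 lower. Cyp2a4, a steroid hydroxylase, was 963 CPM in OGT-KO and 8.94 in control, 108-fold higher (93.4 to 125), and its close copy Cyp2a5, coumarin hydroxylase, was 2646 and 649. The phenobarbital-responsive Cyp2b10 was 33.7 and 6.96 CPM. On the other side, Cyp2e1, which oxidizes ethanol around the central vein, was 586 and 5235 CPM (-3.16). Cyp2c29, an arachidonic acid epoxygenase, was 66.8 and 1366 (-4.33). Cyp1a2 was 565 and 754, within 2-fold.

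Conjugating enzymes and carboxylesterases were called lower more often than higher. Of 27 phase II genes, 12 were called lower and 2 higher, and 8 of the 27 had under 10 CPM in OGT-KO. The 30 listed genes in the table took 0.446% of the reads in OGT-KO and 0.692% in control, and by the median ratio none were higher and 21 lower. Sult2a8, a bile acid sulfotransferase, was 1.92 CPM against 542 in control, 282-fold lower (209.6 to 388). Ugt2b1, a glucuronosyltransferase, was 60.6 against 747. The 2 higher members make the sugar donor for glucuronidation and not the transfer, namely Ugdh (615 and 191 CPM) and Ugp2 (644 and 229 CPM). Carboxylesterases had the lowest median of the functional lists, -1.53, with 8 of 13 called lower and 1 higher. Reads on all 16 in the table came to 0.210% in OGT-KO and 0.739% in control, with none called higher and 10 lower by the median ratio. Ces3b was 4.24 against 693 CPM and Ces3a 269 against 2621. Ces2e, the member called higher, was 339 against 167.

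Bile acid genes were called lower more often than higher, among them genes of synthesis and of uptake. Of 36 compared, 15 were called lower and 1 higher, with a median of -0.81. All 39 in the table made up 0.622% of OGT-KO reads and 1.27% of control reads, while the median ratio gave 1 higher and 25 lower. Cyp8b1, the sterol 12α-hydroxylase, was 5.16 CPM in OGT-KO and 348 in control, 67.4-fold lower (56.2 to 81.6). Cyp7a1, the rate-limiting enzyme, was 36.5 and 49.8 CPM, within 2-fold. Cyp27a1, which starts the alternative route, was 109 and 451. The uptake transporters Slc10a1, also called NTCP (35.9 and 363 CPM), and Slco1a1 (14.9 and 279.5 CPM) were both lower, while the member called higher was the exporter Abcc4. The 250 bases before the Cyp8b1 start are shown because Hnf4a and Cyp8b1 were both lower and they hold a match to the HNF4 letters CAAAGTCC (capitals), 67 bases before the start (RefSeq GRCm38.p6, chr9:121916306-121916555, minus strand).
Cyp8b1: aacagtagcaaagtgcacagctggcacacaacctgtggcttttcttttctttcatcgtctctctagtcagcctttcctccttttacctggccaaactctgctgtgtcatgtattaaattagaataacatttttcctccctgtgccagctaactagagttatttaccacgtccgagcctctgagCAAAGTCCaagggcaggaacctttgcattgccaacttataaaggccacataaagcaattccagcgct

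Genes against oxidative stress were called higher more often than lower. In the list of glutathione and NRF2 genes 26 of 56 were called higher and 2 lower, with a median of 0.91. Under 10 CPM in control were 10 of the 56, among them Slc7a11, Cbr3 and Nqo1. The 60 listed genes in the table took 3.56% of the reads in OGT-KO and 2.55% in control, and by the median ratio 16 were higher and 10 lower. Slc7a11, which brings in cystine for glutathione synthesis, had 1187 reads in OGT-KO (51.9 CPM) and 0 in control, at least 368-fold higher against a floor of 3 reads in the control library. Gstm3, a glutathione transferase, was 2272 CPM against 94.98, 23.9-fold higher (22.9 to 25.02). Cbr3, a carbonyl reductase, was 74.2 against 0.470. Nqo1, the NAD(P)H quinone reductase often used to read NRF2, was 67.3 against 4.94. The pair that builds glutathione did not move together. The catalytic subunit Gclc was 1072 against 412 CPM, while the regulatory subunit Gclm was 176 against 212 (-0.27). The 2 members called lower, Gstk1 (21.7 and 89.003 CPM) and Gstz1 (246 and 632 CPM), are known from peroxisomes or mitochondria and from tyrosine breakdown. Letters of the NRF2 motif, TGACNNNGC, were in the promoters of 17.4% of all compared genes 17.8% of those called higher and 13.8% of those called lower. TGANTCA, of AP-1, was in 6.42%, 7.73% and 8.02%, and matches of both overlapped in 41 genes.

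The methionine, betaine and choline pathways, on which the diet itself acts, were called lower more often than higher. Of 37 compared, 13 were called lower and 3 higher. Reads on all 40 in the table came to 0.800% in OGT-KO and 1.51% in control, with none called higher and 22 lower by the median ratio. Mat1a, which makes S-adenosylmethionine in adult liver, was 587 CPM against 1611. Gnmt, which disposes of its methyl group, was 637 against 1563. Bhmt, which remethylates homocysteine with betaine, was 675 against 2298.

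Most genes of amino acid breakdown were called lower. Of 48 compared genes, 29 were called lower and 2 higher, with a median of -1.19. All 48 in the table made up 0.855% of OGT-KO reads and 1.67% of control reads, while the median ratio gave 1 higher and 39 lower. Tdo2, which opens the tryptophan ring, was 293 CPM in OGT-KO and 1361 in control. Prodh2, a hydroxyproline dehydrogenase, was 18.8 and 218, the largest fold of the list. Tat, tyrosine aminotransferase, did not follow them at 1609 and 1455 CPM, and its sign changes with median-ratio scaling (0.14 to -0.57). Of the urea cycle list 8 of 19 were called lower and 2 higher. The 21 listed genes in the table took 0.904% of the reads in OGT-KO and 1.48% in control, and by the median ratio 2 were higher and 13 lower. Cps1 (2181 and 2931 CPM) and Ass1 (2372 and 3023 CPM), enzymes of the cycle, were within 2-fold at equal totals and past it by the median ratio (-1.15 and -1.07). Otc, another, was 101 and 405, called lower at both. Glul, glutamine synthetase of the hepatocytes at the central vein, was 155 and 1043 CPM and the glutamate transporter Slc1a2 4.29 and 173.

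Genes of both zones of the liver lobule, around the central vein and around the portal vein, were among those called lower. Of 24 pericentral genes 9 were called lower and 3 higher, with a median of -0.79. Reads on all 31 in the table came to 0.347% in OGT-KO and 1.09% in control, with none called higher and 15 lower by the median ratio. Of 30 periportal genes 10 were lower and 6 higher (20.0%, against 24.4% of all compared genes), with a median of -0.51. All 30 in the table made up 5.82% of OGT-KO reads and 7.86% of control reads, while the median ratio gave 3 higher and 19 lower. Of the pericentral Wnt targets, Axin2 (15.1 and 7.39 CPM, 0.94) came just under the threshold on the log2 scale and Nkd1 (17.5 and 7.81 CPM, 1.07) just past it, both higher and neither called by the median ratio, while Glul and Cyp2e1 were lower. In the periportal list, Cyp2f2, a lung and liver P450, was 392 and 2199, Hal, which breaks down histidine, 64.1 and 427, and Pigr, the receptor that carries IgA into bile, 43.3 and 1451. Periportal members called higher included Sox9, Spp1 and Tspan8, which the biliary list also holds.

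Isozymes of glucose metabolism differed in opposite directions. In gluconeogenesis and glycogen 11 of 31 were called lower and 3 higher. The 33 listed genes in the table took 0.899% of the reads in OGT-KO and 1.21% in control, and by the median ratio 1 was higher and 16 lower. G6pc, which releases glucose, was 60.4 CPM against 318 in control. Pck1, which commits oxaloacetate to glucose, was 1466 against 2751, within 2-fold. The liver pyruvate kinase Pklr was 16.8 against 146 CPM, and its counterpart of fetal and proliferating cells, Pkm, 125 against 14.6. Likewise Aldoa, the aldolase of muscle and proliferating cells, was 334 against 114. In the list of such isozymes 5 of 17 were called higher and none lower. Its median, 0.43, was below that of all genes and becomes -0.29 by the median ratio. Reads on all 24 in the table came to 0.366% in OGT-KO and 0.280% in control, with 3 called higher and 1 lower by the median ratio.

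Genes of fatty acid synthesis and oxidation and of cholesterol synthesis were called lower more often than higher, and those of lipid droplets and fat uptake went in both directions. Of 29 genes of fatty acid synthesis 11 were lower and 2 higher. All 29 in the table made up 0.436% of OGT-KO reads and 0.994% of control reads, while the median ratio gave 2 higher and 18 lower. Scd1, the liver stearoyl-CoA desaturase, was 869 CPM in OGT-KO and 4363 in control, while Scd2, the form of other tissues and the fetal liver, was 171 and 6.82. Elovl3, a fatty acid elongase, was 26.2 and 438. Elovl7, another elongase, had 650 reads and 3, a ratio of 201 (68.6 to 979). Fasn, fatty acid synthase, was 285 and 431 CPM, within 2-fold. Fatty acid oxidation had 20 of 55 lower and 4 higher. The 58 listed genes in the table took 0.902% of the reads in OGT-KO and 1.63% in control, and by the median ratio 3 were higher and 38 lower. Acsl1, which activates fatty acids, was 170.1 and 1309. Cpt1a, the gate to the mitochondrion, was 266 in both libraries. Cholesterol synthesis had 12 of 29 lower and none higher, among them Hsd17b7 (4.07 and 55.8 CPM). Reads on all 29 in the table came to 0.324% in OGT-KO and 0.416% in control, with none called higher and 20 lower by the median ratio. Of the uptake genes, Fabp1, the liver fatty acid carrier, was 323 and 3629 CPM, while the fatty acid receptor Cd36 was 129.9 and 39.99. Cidec, which enlarges lipid droplets, was 96.04 and 4.80, and lipoprotein lipase, Lpl, 252 and 42.9. The droplet and uptake list had 8 of 35 higher, a share near that of all genes, and 4 lower, with a median of 0.28 that turns to -0.43 by the median ratio. All 40 in the table made up 0.927% of OGT-KO reads and 1.39% of control reads, while the median ratio gave 2 higher and 13 lower.

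Few respiratory chain and ribosomal protein genes were called at equal totals, and by the median ratio many of the former were lower. Of 75 nuclear genes of oxidative phosphorylation 6 were lower and none higher, with a median of -0.22 that is -0.93 by the median ratio. The 75 listed genes in the table took 0.954% of the reads in OGT-KO and 1.12% in control, and by the median ratio none were higher and 31 lower. Mitochondrially encoded genes held 7.20% of the reads in OGT-KO and 5.73% in control, and mt-Nd1 and mt-Co1 had the largest gains of CPM of all genes. For mt-Nd1 the values were 15356 and 6059.8 CPM, and for mt-Co1 28439 and 20062. Of 78 cytosolic ribosomal protein genes 3 were called higher and none lower, and their median of 0.56 is close to that of all genes and changes sign by the median ratio (-0.15). Reads on all 79 in the table came to 1.84% in OGT-KO and 1.28% in control, with none called higher and none lower by the median ratio.

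Genes of the stress responses differed in both directions. In the list of the unfolded protein and integrated stress responses 12 of 36 were higher and 3 lower, with a median of 0.37 that turns to -0.33 by the median ratio. These shares, 33.3% and 8.33%, are not far from the 24.4% and 5.69% of all compared genes. All 44 in the table made up 0.690% of OGT-KO reads and 0.820% of control reads, while the median ratio gave 9 higher and 11 lower, and 9 of the 36 compared had under 10 CPM in control. The 4 higher members named here, of 12, are known targets of ATF4. Trib3, a pseudokinase that restrains this pathway, was 97.3 CPM in OGT-KO and 5.36 in control, Gdf15, a stress hormone, 85.02 and 5.22, and Ddit3, also called CHOP, 93.8 and 12.3. Nupr1, a small stress-induced chromatin protein, was 24.97 and 0.988. Atf4 itself was 206 and 130.4 CPM, a sign that turns with the median ratio (0.65 to -0.06). Of the 3 lower members, Hyou1, a chaperone, was 188 and 508 CPM, and Herpud1, of the degradation machinery, 178 and 476. Hspa5, the chaperone BiP, was 1128 and 1286, within 2-fold. Heat shock proteins had 1 of 24 higher and 2 lower, with a median of 0.19 that turns to -0.52 by the median ratio. The 26 listed genes in the table took 0.566% of the reads in OGT-KO and 0.535% in control, and by the median ratio 1 was higher and 7 lower.

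Growth arrest genes of the p53 pathway and genes of proliferation were higher together. In the list of G1 cyclins and p53 targets 22 of 33 were called higher and none lower, with a median of 1.67. Reads on all 39 in the table came to 0.281% in OGT-KO and 0.110% in control, with 16 called higher and none lower by the median ratio, and 10 of the 33 compared had under 10 CPM in control. Cdkn1a, the inhibitor p21, was 191 CPM in OGT-KO and 10.9 in control, 17.6-fold higher (15.4 to 20.2). Phlda3, which restrains AKT, was 55.6 and 0.894, and the death receptor Tnfrsf10b 25.9 and 0.612. Mdm2, which degrades p53, was 109 and 33.7. The cyclin of early G1, Ccnd1, was 251 and 42.5, and Myc was 69.7 and 11.1.

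Of 55 mitosis genes 27 passed the filter, and 25 of the 27 were called higher and none lower. All 55 in the table made up 0.0840% of OGT-KO reads and 0.0148% of control reads, while the median ratio gave 21 higher and none lower, and 23 of the 27 compared had under 10 CPM in control. Mki67, the proliferation antigen Ki-67, was 38.5 CPM and 3.01 CPM, 12.8-fold higher (9.92 to 16.8). Top2a, which untangles DNA, was 40.6 and 2.21. Cdk1, the kinase of mitotic entry, was 21.5 and 1.55. Of 25 compared DNA replication genes 18 were called higher and 2 lower. The 44 listed genes in the table took 0.0779% of the reads in OGT-KO and 0.0442% in control, and by the median ratio 11 were higher and 4 lower, and 15 of the 25 compared had under 10 CPM in control. The helicase subunits Mcm5 (21.8 and 1.88 CPM) and Mcm6 (45.7 and 4.66 CPM) were higher, and Pcna, the sliding clamp, was 40.6 and 16.1. The 2 lower members were Mcm10, which helps start the fork, at 19.9 and 121 CPM, and E2f8, a repressor that limits the cell cycle of hepatocytes, at 6.91 and 18.5. Which cells these reads came from cannot be told from bulk RNA. The Cdk1 promoter, of a gene of this group, is printed from chr10:69352913-69353162 (RefSeq GRCm38.p6, minus strand), with matches to CCAAT, on either strand, and to TTTGAA, from the cell cycle homology region, in capitals. TTTGAA was in the promoters of 13.7% of all compared genes, 14.7% of those called higher and 16.5% of those called lower.
Cdk1: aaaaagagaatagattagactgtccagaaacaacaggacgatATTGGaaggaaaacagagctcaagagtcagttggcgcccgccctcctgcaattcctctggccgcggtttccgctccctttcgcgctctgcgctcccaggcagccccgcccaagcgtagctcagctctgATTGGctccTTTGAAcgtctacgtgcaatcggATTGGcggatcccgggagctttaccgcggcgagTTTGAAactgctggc

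**Figure D4:**
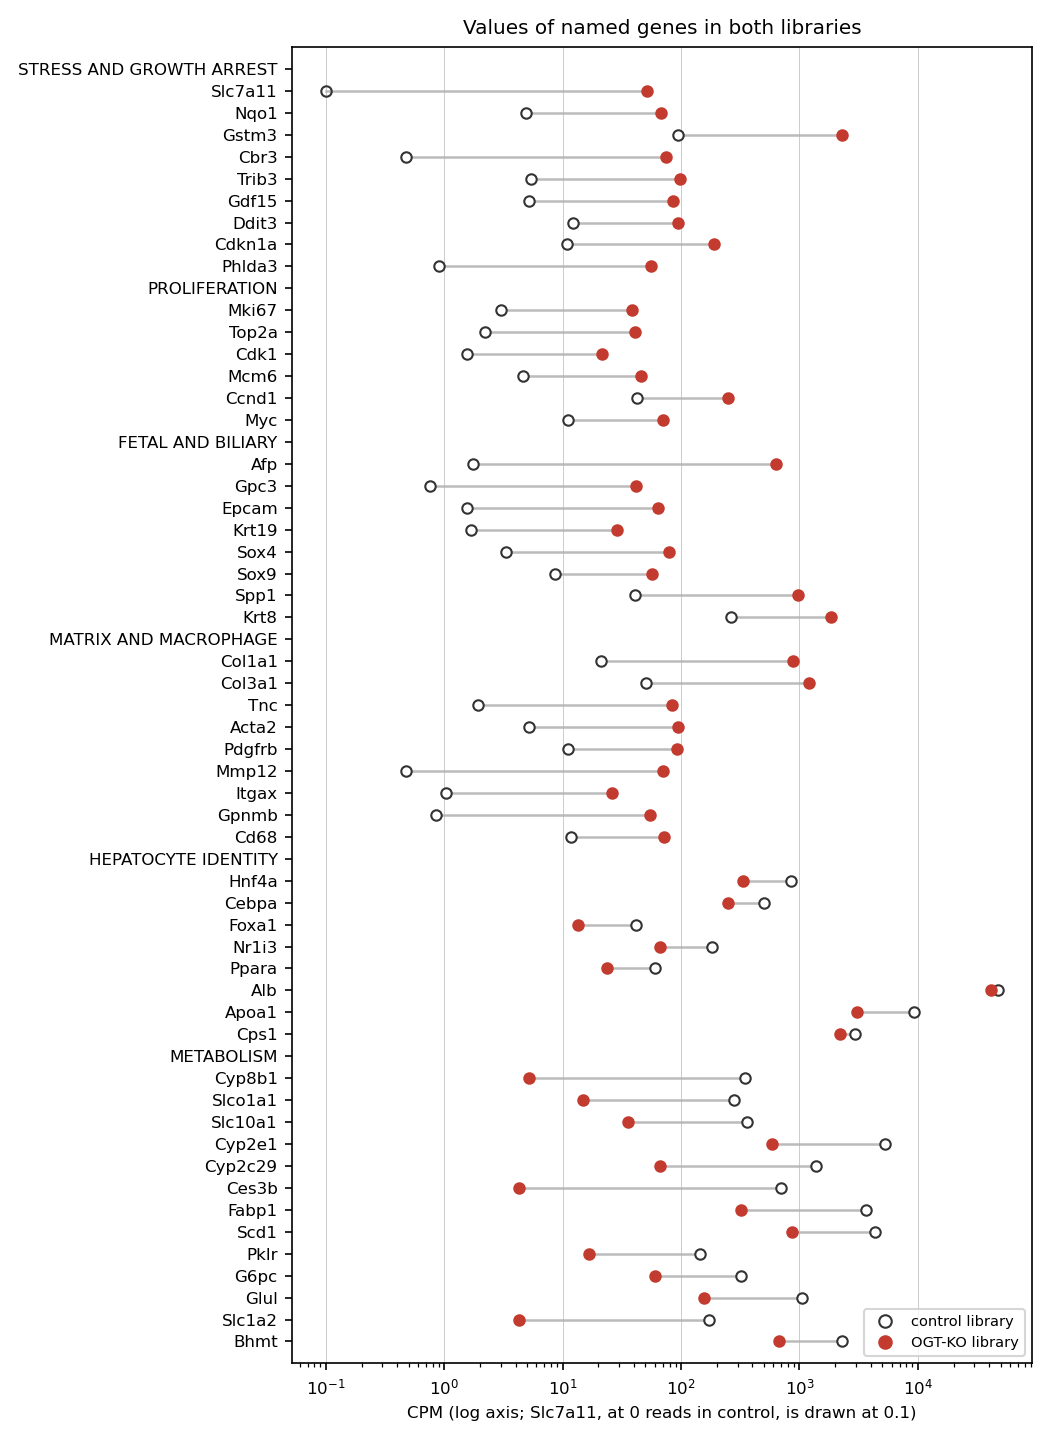
CPM of named genes (log axis) in the control library (open circles) and the OGT-KO library (filled circles), grouped by theme, 1 pooled library each. Slc7a11, at 0 reads in control, is drawn at 0.1. Every gene drawn in the first 4 groups is higher in OGT-KO, and every gene drawn in the last 2, hepatocyte identity and metabolism, is lower. The genes drawn are a choice from the lists, so the single direction of a group is not a result about the lists. Listed genes that went the other way, among them Mcm10, Hyou1, Col5a3, Cyp2a4 and Scd2, are not drawn.

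Early response genes and YAP targets were called higher more often than lower. Of 17 AP-1 and immediate early genes 10 were higher and none lower. Reads on all 30 in the table came to 0.154% in OGT-KO and 0.0636% in control, with 8 called higher and 1 lower by the median ratio. Atf3, a stress-induced repressor, was 47.6 CPM in OGT-KO and 2.96 in control, and Jun was 135 and 31.2. Of 34 YAP and Hippo genes 19 were higher and none lower, with a median of 1.28 (0.58 by the median ratio). All 42 in the table made up 0.199% of OGT-KO reads and 0.0792% of control reads, while the median ratio gave 13 higher and none lower, and 11 of the 34 compared had under 10 CPM in control. Ccn2, a matrix-associated YAP target also called CTGF, was 146 and 8.14. Ankrd1, another target, was 13.8 and 0.518 CPM but did not reach the filter. TEAD is the DNA-binding partner of YAP, and its letters GGAATG were in the promoters of 14.4% of all compared genes, 16% of those called higher and 20.1% of those called lower. In the Notch list, a pathway of duct fate, 9 of 19 were higher and 2 lower. The 29 listed genes in the table took 0.103% of the reads in OGT-KO and 0.0758% in control, and by the median ratio 4 were higher and 3 lower, and 5 of the 19 compared had under 10 CPM in control. The ligand Jag1 was 31.1 and 6.54 CPM and the target Hes1 33.1 and 8.14, while Hes6 was lower at 17.5 and 95.5.

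Genes of ducts and progenitor cells were higher, as were the cholangiocyte markers, which share members such as Epcam with them. Of 27 compared biliary and progenitor genes 23 were called higher and 1 lower, the hepatic factor Onecut1, and the median was 3.47. Reads on all 37 in the table came to 0.596% in OGT-KO and 0.0944% in control, with 21 called higher and 1 lower by the median ratio, and 17 of the 27 compared had under 10 CPM in control. Spp1, osteopontin, made by ducts and by macrophages, was 977 CPM in OGT-KO and 40.97 in control. Epcam, an adhesion molecule of progenitors, was 64.2 and 1.55. Krt19 was 28.8 and 1.69 CPM and Krt7 21.6 and 0.894, both keratins of ducts. The keratins that hepatocytes share, Krt8 (1861 and 262 CPM) and Krt18 (1479 and 224 CPM), were higher too. With Spp1 these keratins made up most of the list's summed CPM, which was 5957 in OGT-KO and 944 in control. Krt20, a keratin of gut epithelium, had 660 reads in OGT-KO and 0 in control, at least 204-fold higher against the floor of 3 reads. Of 33 compared keratin and junction genes 20 were higher and 3 lower. All 43 in the table made up 0.653% of OGT-KO reads and 0.310% of control reads, while the median ratio gave 10 higher and 6 lower. The gap junction protein of hepatocytes, Gjb1, was lower (352 and 822 CPM), and E-cadherin, Cdh1, was higher (219.97 and 71.6 CPM). The parts of added duct cells and of pancreatic RNA in these values were not tested.

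Extracellular matrix genes were higher in OGT-KO nearly throughout. Of 50 compared collagens and matrix proteins 44 were called higher and 1 lower, with a median of 2.94. The 61 listed genes in the table took 1.22% of the reads in OGT-KO and 0.429% in control, and by the median ratio 41 were higher and 3 lower, and 25 of the 50 compared had under 10 CPM in control. The fibrillar collagens Col1a1 (875 and 20.98 CPM) and Col3a1 (1212 and 50.4 CPM) are the bulk of scar tissue and were both higher. Tnc, tenascin of injured tissue, was 84.4 and 1.93, and Fbn1, fibrillin, 94.2 and 2.73. The exception, Col5a3, was 33.3 and 114 CPM. Enzymes that remodel matrix were higher in 24 of 34 cases and lower in none. Reads on all 54 in the table came to 0.576% in OGT-KO and 0.240% in control, with 19 called higher and 1 lower by the median ratio, and 14 of the 34 compared had under 10 CPM in control. Mmp12, macrophage elastase, was 70.5 and 0.470 CPM, and Lox, which crosslinks collagen, 30.4 and 0.612. Timp1, an inhibitor of these proteases, was 20.8 and 0.188 CPM and just missed the filter on the mean. In TGF-β and PDGF signaling 23 of 34 were higher and none lower, from the ligands Tgfb1 (52.6 and 9.78 CPM) and Pdgfb (23.6 and 1.27 CPM) to the receptor Pdgfrb (93.1 and 11.01 CPM). All 42 in the table made up 0.207% of OGT-KO reads and 0.0751% of control reads, while the median ratio gave 15 higher and 1 lower, and 14 of the 34 compared had under 10 CPM in control. Acta2, the smooth muscle actin of activated stellate cells, was 94.3 and 5.22. The stellate cell markers, which share members such as Col1a1 with these lists, were higher too, and the part of cell number was not tested.

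Genes of the cytoskeleton and cell surface were higher as well. Of 44 actin and tubulin genes 39 were higher and none lower (median 2.37). The 50 listed genes in the table took 1.18% of the reads in OGT-KO and 0.361% in control, and by the median ratio 32 were higher and none lower. Actb, β-actin, a common reference gene, was 2604 CPM in OGT-KO and 842 in control (1.63). Tmsb10, which binds actin monomers, was 183 and 15.4. Of 14 integrins 13 were higher, with Itgb1, the common β subunit, at 388 and 172 CPM and Itgax, of macrophages and dendritic cells, at 25.9 and 1.03. Reads on all 23 in the table came to 0.120% in OGT-KO and 0.0421% in control, with 7 called higher and none lower by the median ratio, and 6 of the 14 compared had under 10 CPM in control. Among annexins and S100 proteins 8 of 15 were higher and none lower, among them Anxa2 (404 and 15.3 CPM) and S100a11 (145 and 5.46 CPM). All 21 in the table made up 0.221% of OGT-KO reads and 0.0636% of control reads, while the median ratio gave 6 higher and 1 lower, and 4 of the 15 compared had under 10 CPM in control.

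Macrophage genes were called higher in both the resident and the infiltrating lists. The lysosomal antigen Cd68 was 71.6 CPM in OGT-KO and 11.8 in control, and Gpnmb, of lipid-laden and scar macrophages, 54.8 and 0.847. Clec4f, particular to Kupffer cells, was 180.3 and 77.1, a difference that the median ratio leaves uncalled (0.50), and Marco, a scavenger receptor, 119 and 11.1. The recruitment receptor Ccr2 was 14.96 and 0.706 CPM, under the filter on the mean. Of 22 compared chemokine and cytokine genes 15 were higher and 2 lower. The 53 listed genes in the table took 0.298% of the reads in OGT-KO and 0.137% in control, and by the median ratio 12 were higher and 5 lower, and 9 of the 22 compared had under 10 CPM in control. Cx3cl1, fractalkine, was 33.2 and 0.988 CPM and Il1rn, the interleukin-1 receptor antagonist, 40.1 and 1.98. Some classical messengers of inflammation did not reach the filter, with Ccl2 at 14.3 and 3.25 CPM and Tnf at 3.28 and 0.141. Lifr, the receptor of leukemia inhibitory factor on hepatocytes, was lower at 106 and 495. Antigen presentation had 15 of 24 higher and none lower, with the largest fold for the class I gene H2-Q1 (52.9 and 4.19 CPM), followed by class II genes of professional presenting cells such as H2-Aa (177 and 23.9 CPM) and Cd74 (455 and 74.2 CPM). Reads on all 32 in the table came to 0.908% in OGT-KO and 0.694% in control, with 10 called higher and 2 lower by the median ratio. Interferon-stimulated genes had 16 of 38 higher and none lower, with a median of 0.81 that is 0.14 by the median ratio. All 53 in the table made up 0.275% of OGT-KO reads and 0.181% of control reads, while the median ratio gave 6 higher and 2 lower, and 12 of the 38 compared had under 10 CPM in control. Irf7 was 121 and 36.9 CPM, whereas Isg15 (13.3 and 8.04 CPM) was within 2-fold.

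In the growth hormone and IGF list 8 of 29 were lower and 6 higher, with a median of 0.08 that turns to -0.62 by the median ratio. The share called higher, 20.7%, was under the 24.4% of all compared genes. The 33 listed genes in the table took 0.874% of the reads in OGT-KO and 2.16% in control, and by the median ratio 5 were higher and 12 lower. Ghr, the growth hormone receptor, was 119 CPM in OGT-KO and 502 in control, and Igf1, its chief product, 321 and 544, within 2-fold. The binding proteins called higher included Igfbp1 (192 and 40.4 CPM) and Igfbp7 (424 and 66.99 CPM). Hsd3b5, a male-biased steroid enzyme, had 4 reads and 4376. In the iron and metal list 9 of 34 were higher, a share near that of all genes, and 3 lower, and its median of 0.38 turns to -0.33 by the median ratio. Reads on all 38 in the table came to 3.50% in OGT-KO and 3.36% in control, with 5 called higher and 8 lower by the median ratio. Hmox1, which frees iron from heme, was 100.02 and 20.4 CPM. Hamp, hepcidin, which blocks iron release, was 788 and 430.2, within 2-fold, while Tmprss6, which restrains hepcidin, was 270.1 and 560.5. Alas2, the heme enzyme of red cell precursors, was 10.1 and 213, and differed far more than the globins.

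Calls of single genes made above at equal totals also depend on the scaling near the threshold. Among genes given above as higher by at least 2-fold, Gfpt1 (0.29), Nagk (0.92), Cebpd (0.76), Gata6 (0.87), Ppard (0.58), Clu (0.67), Vwf (0.59), Ces2e (0.30), Ugdh (0.97), Ugp2 (0.77), Gclc (0.66) and Aldoa (0.82) had a log2 fold change under 1 by the median ratio. So did mt-Nd1 (0.62), Mdm2 (0.96), Pcna (0.59), Cdh1 (0.89), Actb (0.91), Itgb1 (0.45), Irf7 (0.98) and Cd36 (0.97). Lower by less than 2-fold at equal totals and past it by the median ratio were Oga (-1.01), Cebpa (-1.71), Fgb (-1.53), Cyp1a2 (-1.13), Cyp7a1 (-1.14), Pck1 (-1.63), Fasn (-1.31), Igf1 (-1.48) and Hbb-bs (-1.23).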

How the data were processed

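Liver mRNA of 4 pools of 3 mice was sequenced, and the 2 pools with no recovery were compared. RNA was isolated with TRIzol and libraries were made with the Tecan universal plus kit. The authors deposited CPM, read counts scaled to 1000000 per library. The table is named for DESeq2 normalization, and the designs assumed such values, but each column sums to 1000000. The submitters' processing notes also name STAR and GRCm39, with no versions or counting rule. Of all values 100.0% were whole multiples of 1 read (within 0.01 of a read), and the recovered reads were 22866431 for OGT-KO and 21257763 for control. Every deposited column was assigned to a sample by its name.

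The filter asked for a mean of 10 CPM across all 4 libraries. Values were compared on the log2(CPM + 1) scale, on which changes of low genes come out too small, and called at 2-fold. The exact binomial test of the recovered reads, with Benjamini-Hochberg adjustment, compares the libraries and not the conditions. It called 8011 genes by itself and all 2695 called by fold. Intervals are exact 95% intervals and, like the floor of 3 reads, cover counting error only. Python 3.11 was used with numpy 2.4.6, pandas 2.3.3, scipy 1.17.1 and matplotlib 3.10.9. On simulated reads for 13903 genes, all 200 genes changed 4-fold were called, as were 0 of 8763 unchanged genes. Both simulated libraries were drawn from the control library's shares with counting error only. The simulation therefore checks the arithmetic, and cannot say how often pools of unchanged mice would differ by 2-fold. Alternatives were pseudocounts of 0.1 and 10, scaling by upper quartile and by the median ratio, no filter, a mean of at least 50, a mean over the 2 libraries compared, a 4-fold threshold, and leaving out the 100 most abundant genes.

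The comparison, the lists and the tests were chosen with earlier results of these data known. Genes were named by rule: Ogt and Oga, the 10 largest rises and 10 largest falls among genes with a mean of at least 50, the 5 largest gains and 5 largest losses of reads, the first 3 genes of each list with up to 4 members past 2-fold in each direction, and the 5 gene families of at least 10 genes with the highest and the 5 with the lowest medians. Promoters came from RefSeq GRCm38.p6, which is not the build of the submitters' notes, so no other coordinates are given. Some genes that the rule names are not reported here. Genes with near-identical copies (Mup, Gstm, Gsta, Ces, Cyp, Ugt and Serpina1 families) are uncertain singly.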

Additional observations from a re-analysis of the deposited data

How the results depend on the processing

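Against 2185 genes higher and 510 lower, upper-quartile scaling gave 1208 and 981, and median-ratio scaling 935 and 1381. A 4-fold threshold gave 691 and 164. A pseudocount of 10 gave 1367 higher, no filter 4595 and a mean of at least 50 CPM 525, the lower counts staying within 1.5 times. Of the gene lists, 21 had a median of at least 1, and 11 by the median ratio. The 2 lists with a median of -1 or less became 15 by upper quartile, 18 by the median ratio and 8 without the 100 most abundant genes. The scalings shift the median of all compared genes by -0.47 and -0.70, which is how they change these counts. Genes near 0 in a library shift less because 1 is added to each value, as for Slc7a11 (5.73 to 5.35 by the median ratio). Across all alternatives, 357 recomputed list medians stayed on the same side of a 2-fold difference and 63 did not, and of the values of named genes 1369 stayed and 151 did not. No called gene or list reversed. No paired analysis was possible because each group is 1 library and the labels give no replicate numbers, and leaving out a library was not possible for the same reason. The depth resolves about 0.14 CPM. What it does not cover is variation between mice, which pooling hides, so every fold is that of a pool.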

Other observations

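Among gene families named by the letters of their symbols, with at least 10 compared members each (115 families), the lowest medians were those of Mup (-7.11, 15 genes), Ces (-1.43, 12 genes), Serpina (-1.38, 14 genes), Akr (-1.38, 11 genes) and Ugt (-1.08, 14 genes). The highest were Col (3.07, 20 genes), Cd (1.62, 33 genes), H, which takes in histocompatibility and histone genes (1.44, 24 genes), Nup (1.22, 15 genes) and Myo (1.12, 13 genes). Nup genes encode the nuclear pore, whose proteins carry much O-GlcNAc, and Akr genes encode aldo-keto reductases. By the median ratio the medians of Nup and Myo were 0.53 and 0.43.

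The largest rises and falls among well expressed genes included some that no list held. Cd63, a tetraspanin of lysosomes and exosomes, was 182 CPM in OGT-KO and 3.72 in control. Scara3, a scavenger receptor family member, was 104 and 1.83 CPM, 56.8-fold higher (41.4 to 80.1). Major urinary proteins, pheromone carriers with near-identical copies, made up 8 of the 10 largest falls. Mup7 had 15 reads in OGT-KO and 60450 in control, and Mup1 had 0 and 6222, at least 2231-fold lower against a floor of 3 reads in the OGT-KO library.

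Of genes near the filter on low values, Tlr3 (13.2 CPM in OGT-KO, 4.47 in control) and Glipr2 (14.7 and 1.41 CPM) lay just inside it, and Dusp4 (20.6 and 2.63 CPM) and P4ha2 (15.0 and 8.94 CPM) just outside.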
